A study of Homo sapiens with 45 samples.

Results

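This account concerns 1224 genomic regions that CTCF shared with MBD2 and TET1, but not with MBD3, in HEK293T cells treated with the solvent DMSO. The regions were chosen by overlap of deposited ChIP-seq peak lists. Each is a distinct region of the DMSO CTCF list that overlapped, by 1 bp or more, a region of the DMSO MBD2 list and a region of the DMSO TET1 list, and no region of the DMSO MBD3 list. They made up 7.02% (95% Wilson interval 6.65 to 7.41) of the 17440 CTCF regions in DMSO, and 23.4% (22.2 to 24.5) of the 5240 CTCF regions with both MBD2 and TET1. The other 4016 of those 5240 also had MBD3. Of the 1224, 1215 lay on chromosomes 1 to 22 and X.

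HEK293T is a human embryonic kidney line. Cells were treated for 72 h with 30 µM BPK25, with 0.5 mM IAA or with DMSO alone, and CTCF, MBD2, MBD3 or TET1 was immunoprecipitated from sonicated chromatin. BPK25 is a small molecule known from other work to deplete NuRD subunits. IAA is an auxin, a plant hormone that triggers loss of degron-tagged proteins. The protein that IAA acts on is not named in the labels, which mention both HEK293T and edited cells derived from it. The 3 libraries of each treatment and antibody were pooled by the authors into 1 peak list, so values below have no replicate error and no difference between treatments or antibodies was tested. Intervals cover counting over regions only.

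CTCF is a zinc finger protein that binds insulators and anchors chromatin loops, and its binding at some sites is blocked by DNA methylation. MBD2 and MBD3 are alternative subunits of NuRD, a complex that remodels nucleosomes and removes acetyl groups from histones, and a given NuRD complex holds one or the other. MBD2 binds methylated CpG, whereas mammalian MBD3 has lost most of that affinity. TET1 oxidises 5-methylcytosine, a step toward removal of DNA methylation.

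The summits of the 3 proteins lay close together. The regions were chosen by overlap, so near summits and overlapping partner regions are in part given by the rule. The median distance from the CTCF summit, the position of highest signal in a region, was 12 bp (quartiles 6 and 23) for the MBD2 summit and 17 bp (8 and 31) for the TET1 summit. Both summits lay within 50 bp of the CTCF summit at 1047 regions (85.5%), and within 150 bp at 1167 (95.3%). The MBD2 summit was the nearer one at 743 regions, the TET1 summit at 448, and they were equally near at 33. The MBD2 and TET1 regions overlapped each other at 1222 of the 1224 regions. The 1224 regions met 1224 distinct MBD2 regions and 1223 distinct TET1 regions, so nearly every one had a partner pair of its own. The median width was 254 bp in the CTCF list, 258 bp in the MBD2 list and 226 bp in the TET1 list. Of the regions, 1201 (98.1%) had a single CTCF summit. At the 4016 CTCF regions that also had MBD3, the median summit distances were 10 bp for MBD2 and 12 bp for TET1. Close summits were therefore not particular to the set.

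**Figure D1:**
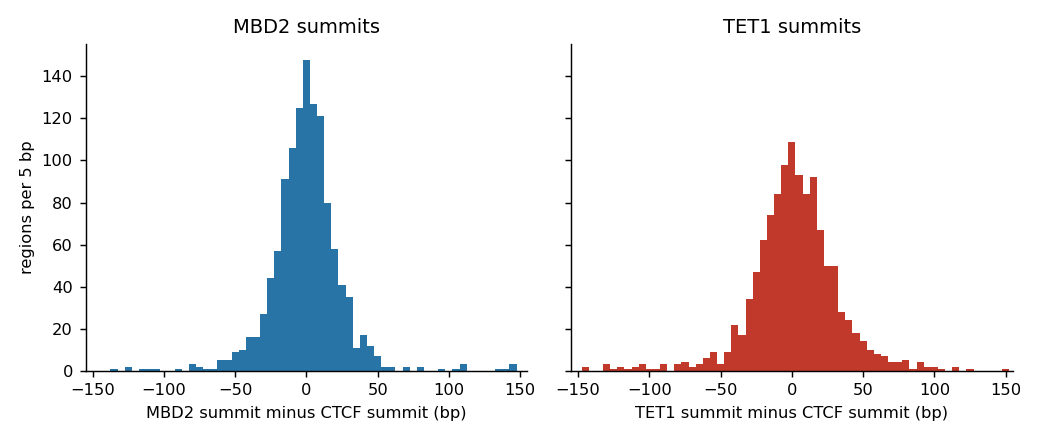
Histograms of the signed distance in bp from the CTCF summit to the MBD2 summit (left) and to the TET1 summit (right) at the 1224 regions, in bins of 5 bp; summits over 150 bp away (24 for MBD2 and 47 for TET1) are not drawn. Both distributions centre on the CTCF summit, and the one for TET1 is wider, with a median distance of 17 bp against 12 bp for MBD2.

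The signals of the 3 proteins in DMSO, whose listing chose the regions, are given as a description. The fold enrichment, the authors' ratio of pileup to local background at the summit, had a median of 4.5 for CTCF (quartiles 3.77 and 5.35), 4.74 for MBD2 (4 and 5.56) and 3.3 for TET1 (2.82 and 3.84). By fold, the regions sat near the middle of each list, at a median percentile of 55.4 in the CTCF list, 55.9 in the MBD2 list and 47 in the TET1 list. Fragment pileups at the summits, recovered from the deposited fold and significance, had medians of 39 for CTCF, 36 for MBD2 and 37 for TET1. Divided by the background of the whole genome in the same list (4.35, 3.77 and 5.68 fragments for CTCF, MBD2 and TET1), which removes the depth of a list, these came to medians of 8.97, 9.55 and 6.51. On that scale MBD2 stood above TET1 at 1180 regions (96.4%), CTCF above TET1 at 1145 (93.5%) and MBD2 above CTCF at 761 (62.2%). TET1 was thus the weakest of the 3 signals at most of these regions, while MBD2 and CTCF were close. This order was not particular to the set. At CTCF regions with MBD2, MBD3 and TET1, MBD2 stood above TET1 at 97.2%, CTCF above TET1 at 96.2% and MBD2 above CTCF at 60.7%. These levels carry the efficiency of each antibody, so they rank signals and not amounts of protein.

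Compared with CTCF regions of other partners, the 1224 regions resembled those with MBD2 and MBD3 but no TET1 in strength and were weaker than those with all 3 partners. The median CTCF fold was 4.5 here, 4.6 at the 2847 regions with MBD2 and MBD3 but no TET1, and 5.31 at the 4016 regions with all 3. The median MBD2 fold was 4.74 here, 4.74 with MBD2 and MBD3 and 5.49 with all 3. The median TET1 fold was 3.3 here and 3.6 with all 3. All of these come from the lists that define the classes, and list length and detection limits enter them. Across the CTCF list, the 1224 regions made up 4.82% of the lowest quartile of CTCF fold, 7.45% and 8.56% of the middle quartiles and 7.25% of the highest. Regions with all 3 partners made up 9.43%, 14.5%, 21.4% and 46.8% of the same quartiles.

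**Figure D2:**
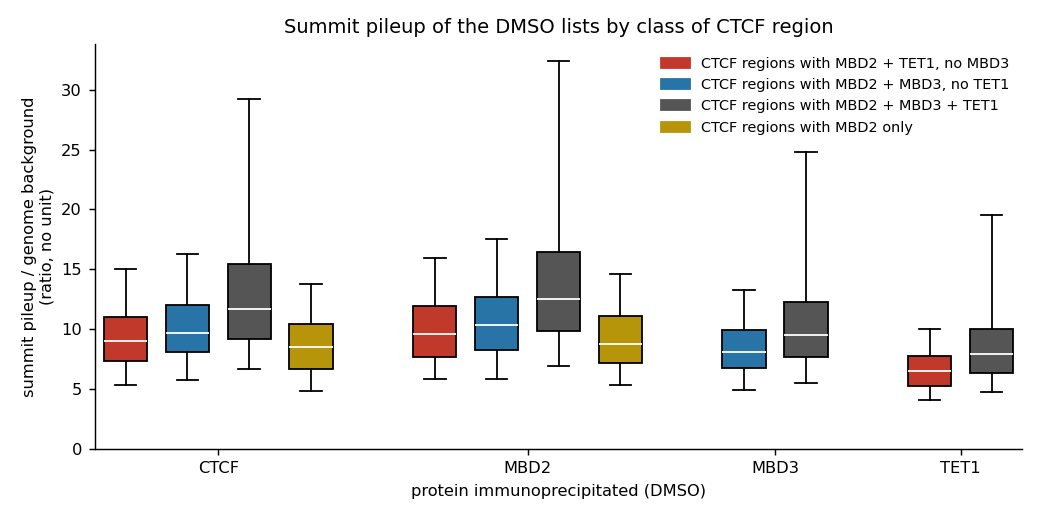
Summit pileup over the genome background of its list (vertical axis, a ratio) for each protein in DMSO, by class of CTCF region; boxes span the quartiles with the median as a white line, and whiskers run between the 5th and 95th percentiles of regions. The regions with MBD2 and TET1 but no MBD3 (red) have medians of 8.97 for CTCF, 9.55 for MBD2 and 6.51 for TET1, below those with all 3 partners (grey) at 11.7, 12.5 and 7.92.

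Within the 1224 regions, regions of high fold for one protein tended to have a high fold for the others. Spearman's rho was 0.58 between CTCF and MBD2 fold, 0.59 between CTCF and TET1 fold and 0.56 between MBD2 and TET1 fold (n = 1224 regions). At the regions with all 3 partners the same values were 0.75, 0.71 and 0.71 (n = 4016 regions), over a wider range of folds. The points share a genome, and the lists may share the DMSO inputs as control. These values describe the regions and were not tested. Limited to the 1122 regions with a local CTCF background of at most 3 times that of the genome, the values were 0.56, 0.56 and 0.53. Each fold is divided by a local background, and where lists have a similar one, a common divisor can raise such values. The limit on background does not remove this.

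**Figure D3:**
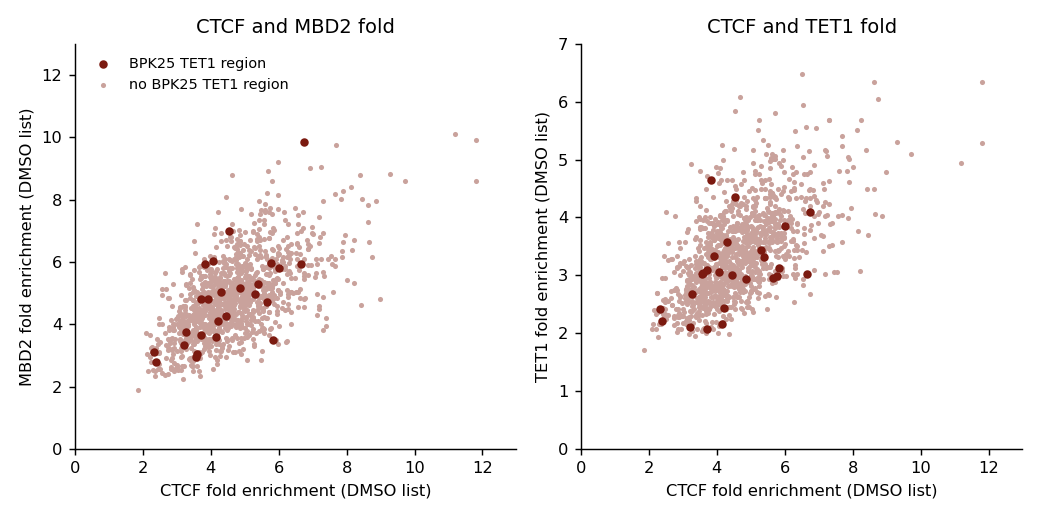
CTCF fold enrichment against MBD2 fold (left) and against TET1 fold (right) in the DMSO lists, 1 point per region; dark points are the 25 regions that also overlapped a TET1 region under BPK25. Points run from the lower left to the upper right in both panels, and the dark points lie among the others, with a median CTCF fold of 4.22 against 4.51. Their median CTCF pileup, not drawn, was higher, at 53 fragments against 39.

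The strongest of these regions stood far above the median. The region chr3:194193042-194193395 (hg19, as all coordinates here) had a CTCF fold of 11.8 from a pileup of 73 fragments, an MBD2 fold of 9.91 and a TET1 fold of 5.28. Its nearest MBD3 region was 799 kb away. At chr2:170789686-170790020 the CTCF fold was also 11.8, with an MBD2 fold of 8.61 and a TET1 fold of 6.34, one of the 3 highest TET1 folds of the set. The highest MBD2 fold, 10.1, was at chr1:21985596-21985852, where CTCF reached 11.2 and TET1 4.94, and the MBD2 and TET1 summits each lay 16 bp from the CTCF summit. The highest TET1 fold, 6.48, lay at chr18:839382-839616, where CTCF had 6.52 and MBD2 6.29, so TET1 matched the other proteins in fold there. A TET1 fold of 6.34 was also found at chr15:51178083-51178368, beside a CTCF fold of 8.63 and an MBD2 fold of 7.82. None of these 5 regions was in any list of the treated cells, and their local CTCF background was between 1 and 1.21 times that of the genome.

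The absence of MBD3 is the absence of a listed region, not a measured 0. At the local CTCF background of each region, an MBD3 pileup of 21 fragments in the median (5th and 95th percentiles 15 and 32) would have reached the least significant entry of the MBD3 list. That is 4.45 times the MBD3 genome background of 4.72 fragments, and it applies to a stretch as long as the shortest listed MBD3 region, 192 bp. This limit takes the local background of MBD3 to follow that of CTCF. At the regions with all 3 partners the ratio between them, each over its genome background, was 1.01 in the median (0.893 and 1.11). MBD3 pileups at those regions had a median of 45 (26 and 117), and 31 of 3989 (0.777%) lay at or under the same limit. Those regions were chosen for a listed MBD3 region, so this share is low by construction. It says nothing of MBD3 signal where no MBD3 region was listed. At the regions of the set, an MBD3 signal below about 21 fragments was not detectable at this depth. Over the genome background of its own list, that limit was 4.45, where TET1 had a median of 6.51 over its own.

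By overlap and gap, few regions sat at the edge of the definition. An MBD3 region lay within 500 bp without overlap at 12 regions (0.98%) and within 10 kb at 176 (14.4%), while 477 (39%) had none within 100 kb. The closest were chr11:93462783-93463030, at a gap of 85 bp, and chrX:107963727-107963930, at 115 bp. Just outside, chr4:187353874-187354186 and chr6:86383180-86383849 had MBD2 and TET1 and shared 33 and 53 bp with an MBD3 region of −log10 q 3.11 and 4.37. The smallest overlap inside the set was 2 bp with an MBD2 region, at chr3:101399164-101399361, and the next on the main chromosomes was 47 bp with a TET1 region, at chr11:93462783-93463030. A −log10 q under 2, close to the limit of the lists, was found for TET1 at 57 regions (4.66%), for CTCF at 18 and for MBD2 at 15. The set depended more on a stricter limit. The lower quartile of the TET1 −log10 q was 4.37, and with 5 or more in every list the set numbered 911. That limit also applied to the MBD3 list, so CTCF regions with a weaker MBD3 region could enter. How many regions had MBD3 just under its limit is unknown.

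The regions were spread over the genome much like other CTCF regions. By chromosome, their share of CTCF regions was between 5.26% on chromosome 18 (interval 3.16 to 8.64) and 9.15% on chromosome 21 (5.53 to 14.8). Chromosome 4, at 8.97% (7.27 to 11), was the one whose interval did not include the 7.02% of the whole list, without correction for the 23 chromosomes compared. On other contigs 9 of 174 CTCF regions belonged to the set, and on chromosome Y 0 of 14 did. The nearest other CTCF region was 34.5 kb away in the median, as for all CTCF regions (34.5 kb), and 21.5% (19.3 to 23.9) had one within 10 kb, against 27.2% (25.8 to 28.6) of the regions with all 3 partners. The nearest CTCF region was itself of the set in 95 of 1223 cases, or 7.77% (6.4 to 9.4), against 7% for all CTCF regions, so no grouping of these regions beyond that of the list was detectable.

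**Figure D4:**
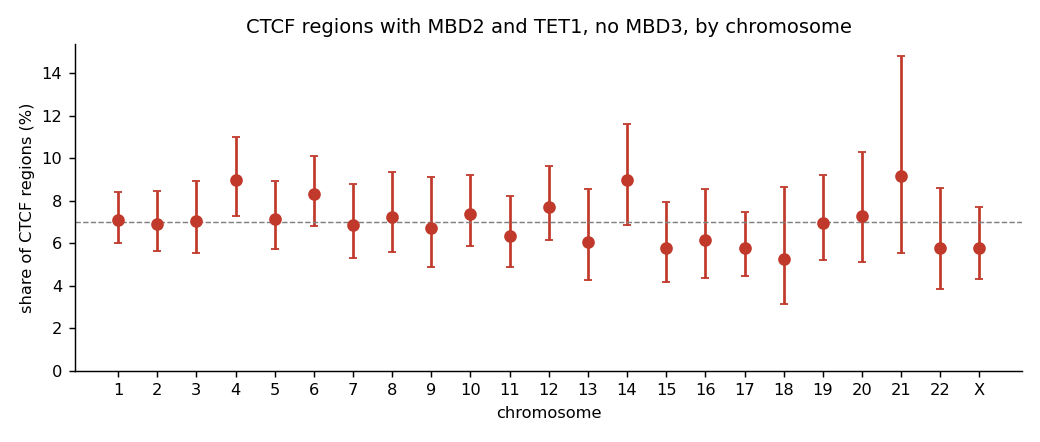
Share of the CTCF regions of each chromosome (vertical axis, percent) that had MBD2 and TET1 but no MBD3, with 95% Wilson intervals; the dashed line marks 7.02%, the share in the whole list. The shares lie between 5.26% and 9.15%.

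Regions of the treated cells were not used in the choice and could therefore be compared. Of the 1224 regions, 1187 (97%) were in none of the 8 lists of treated cells, 34 were in 1 and 3 in 2 or more. The 37 in any of them made up 3.02% (2.2 to 4.14), against 5.7% of all CTCF regions, so absence from the treated lists was common to the whole CTCF list. A BPK25 region of any antibody lay at 35 (2.86%, 2.06 to 3.95), against 5.38% of all CTCF regions, and an IAA region at 2 (0.163%, 0.0448 to 0.594), against 1.16%. Where all 3 partners were listed, a BPK25 region was found at 14.7% of regions (13.7 to 15.8) and an IAA region at 3.81% (3.26 to 4.45). With no partner listed, the shares were 1.27% (0.973 to 1.67) and 0.22% (0.116 to 0.418).

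TET1 under BPK25 was the treated list that met these regions most often. It held a region at 25 of them, or 2.04% (1.39 to 3), where 3.84% of all DMSO CTCF regions had one. Regions with all 3 partners supplied 449 of the 670 CTCF regions behind that 3.84%. The share was 3.44% (2.83 to 4.18) at the regions with MBD2 and MBD3 but no TET1, 11.2% (10.2 to 12.2) with all 3 partners, 1.48% (1.13 to 1.92) with MBD2 only and 0.539% (0.356 to 0.815) with no partner. Among CTCF regions with MBD2, the difference between those with TET1 but no MBD3 and those with MBD3 but no TET1 was −1.4 percentage points (Newcombe 95% interval −2.38 to −0.267). With a −log10 q of 5 or more in every list it was −0.368 (−1.22 to 0.754), and with summits within 150 bp as the criterion −1.05 (−2.08 to 0.132), so it did not hold under those choices. By quartile of CTCF fold it was −1.96 (−4.48 to 1.27), −0.00431 (−2.08 to 2.7), −1.77 (−3.17 to −0.0119) and −1.87 points (−3.91 to 0.792), lowest quartile first, with 3 of the 4 intervals including 0. It was −1.46 points (−2.38 to −0.381) at a local background of at most 3 times that of the genome and 0.204 (−5.08 to 7.53) above. The difference from the regions with all 3 partners was −9.14 points (−10.3 to −7.8). From those with MBD2 only it was 0.567 points (−0.225 to 1.58), which does not exclude 0. With the q filter this difference was 0.895 (0.199 to 1.94) and with the summit criterion 0.915 (0.0778 to 1.99), both above 0. At a local background of at most 3 times that of the genome it was 0.306 (−0.408 to 1.26). The q filter and the summit criterion also applied to the MBD3 list, so they could add regions to the set as well as remove them.

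The difference from the regions with all 3 partners was present in each quartile of CTCF fold and on both sides of a background limit. In the lowest quartile of CTCF fold, 4 of 210 regions of the set (1.9%) had a BPK25 TET1 region, against 66 of 411 (16.1%) with all 3 partners, a difference of −14.2 points (−18.2 to −9.82). In the highest quartile it was 8 of 316 (2.53%) against 256 of 2040 (12.5%), or −10 points (−12 to −7.27), and in the middle quartiles −5.45 (−8.26 to −2.3) and −7.03 points (−9 to −4.84). A local CTCF background of over 3 times that of the genome was found at 8.33% of the set (6.91 to 10), against 16.2% (15.1 to 17.4) with all 3 partners. Among regions at or below that limit, 17 of 1122 (1.52%) against 293 of 3337 (8.78%) had a BPK25 TET1 region, and above it 8 of 102 (7.84%) against 145 of 652 (22.2%). The background of 27 regions with all 3 partners was not solved. Local background differed between the classes, and its part in the pooled difference was not tested beyond this split. Pileups also differed, with medians of 39 against 51 for CTCF and 37 against 45 for TET1. Quartiles of fold do not match the classes on pileup, and no split by pileup or by TET1 signal was made.

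**Figure D5:**
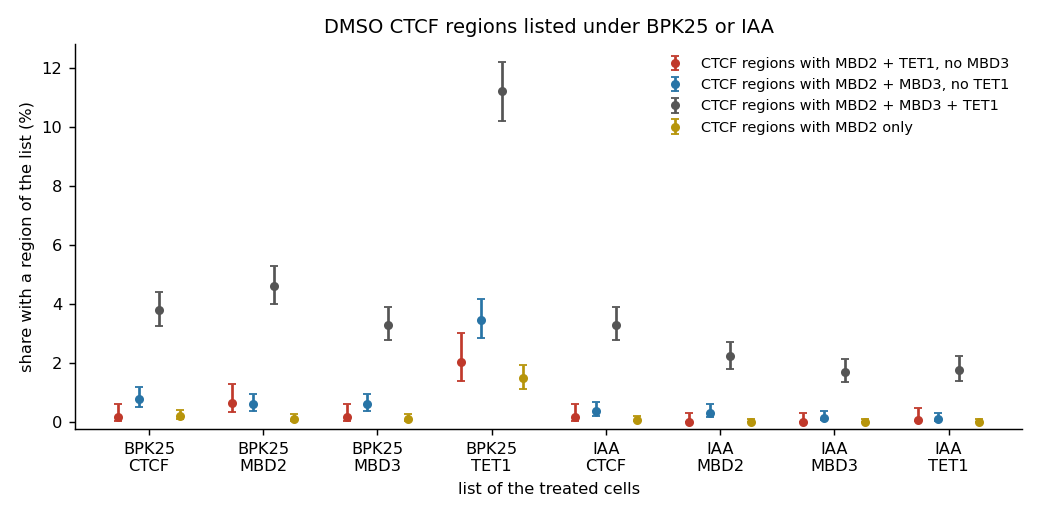
Share of DMSO CTCF regions (vertical axis, percent, with 95% Wilson intervals) that overlapped a region of each of the 8 lists of treated cells, by the partners of the CTCF region in DMSO. The regions with MBD2 and TET1 but no MBD3 (red) reach 2.04% for TET1 under BPK25 and at most 0.654% in the other lists, below the regions with all 3 partners (grey) in every list.

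All 25 BPK25 TET1 regions also overlapped the DMSO TET1 region there, with summits a median of 25 bp apart. The BPK25 fold had a median of 5.68, between 3.21 and 9.26, and the pileups were between 8 and 40 fragments with a median of 15. Relative to the genome background of its own list, the pileup was 12.9 in the median under BPK25 and 8.1 in DMSO. Only regions past the limit of the BPK25 list enter these values, so they say nothing of the regions not listed. Passing the limit of a shallower list takes a higher ratio, so the 2 medians do not show a rise. The median fold of the whole TET1 list was 5.26 under BPK25 and 3.37 in DMSO. In DMSO, the 25 had a median local CTCF background of 2.62 times that of the genome, against 1.75 at the 1199 others. Their DMSO pileups were also higher, with medians of 53 against 39 for CTCF, 48 against 36 for MBD2 and 46 against 36 for TET1.

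The BPK25 TET1 fold was highest at chr8:135898673-135898953, at 9.26, from 19 fragments, where the DMSO TET1 fold was 3.34. It was 8.5 at chr14:90381613-90381905 (19 fragments) and 8.09 at chr12:116504460-116504748 (17 fragments), with DMSO TET1 folds of 3.1 and 3.03. At chr5:115166868-115167306, which had one of the 3 highest MBD2 folds of the set (9.85), the BPK25 TET1 fold was 4.45, from 10 fragments.

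The other lists of BPK25 cells met few of the regions. MBD2 under BPK25 had a region at 8 of the 1224 (0.654%, 0.332 to 1.28), against 1.42% of all DMSO CTCF regions and 4.61% of those with all 3 partners. The difference from the class with all 3 partners was −3.95 points (−4.72 to −3.08), while that from regions with MBD2 only, of which 0.109% had one, was 0.544 points (0.179 to 1.18). At chr13:81591773-81592001 both MBD2 (fold 5.71, 17 fragments) and TET1 (fold 6.37, 14 fragments) were listed under BPK25, beside DMSO folds of 7.01 and 4.36. At chrX:107963727-107963930, one of the regions with an MBD3 region just outside, the BPK25 MBD2 fold was 5.43. The BPK25 MBD2 fold was 4.07 at chr1:17231915-17232131.

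CTCF under BPK25 was listed at 2 of the 1224 regions (0.163%, 0.0448 to 0.594), against 1.27% of all CTCF regions. They were chr12:65517264-65517616, with a fold of 6.99 from 9 fragments, and chr14:105696736-105697865, with 6.89 from 12 fragments. MBD3 was likewise listed under BPK25 at 2 regions, against 1.1% of all CTCF regions, although it was listed at none in DMSO by definition. These were chr9:141020788-141021522 (fold 5.09) and chr12:6574681-6574941 (fold 4.31), each from 6 fragments, and the region on chromosome 12 also had a BPK25 TET1 region of fold 7.18. Values of 6 to 12 fragments carry large counting error.

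Under IAA, CTCF was listed at 2 regions (0.163%), against 0.952% of all CTCF regions. One was chr7:142937625-142938113, with a fold of 4.11 from 8 fragments. The other, outside the rule for named regions, lay on an unlocalized contig of chromosome 9 with a local background of 39.5 times that of the genome. It was the 1 region of the set also listed for TET1 under IAA (0.0817%, against 0.459% of all CTCF regions). MBD2 and MBD3 under IAA were listed at 0 of the 1224 regions, which allows a share of up to 0.245% by the limit of 3 counts (Wilson upper limit 0.313%), against 0.631% and 0.442% of all CTCF regions. With all 3 partners the IAA shares were 3.29%, 2.22%, 1.69% and 1.77% for CTCF, MBD2, MBD3 and TET1.

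Treated lists were shallower than DMSO lists, and depth alone lowers the number of regions that can be listed. The genome background was 20.4% of the DMSO value for TET1 under BPK25, 49.5% for MBD2, 5.89% for CTCF and 21.6% for CTCF under IAA. With DMSO pileups and local backgrounds scaled by these ratios, and Poisson counting, the number expected past the least significant entry of the treated list was computed for these 4 lists. For TET1 under BPK25, 25 of the 1224 were listed and 261 (21.4%) expected, and with all 3 partners 443 of 3998 (11.1%) were listed and 1460 (36.5%) expected. For MBD2 under BPK25, the deepest of the treated lists relative to DMSO, 8 were listed and 957 (78.1%) expected. With all 3 partners 180 of 4000 (4.5%) were listed for it and 3580 (89.5%) expected. For CTCF, 2 were listed and 68.5 expected under BPK25, and 2 listed and 458 (37.4%) expected under IAA. At regions with all 3 partners 137 of 3989 (3.43%) were listed for CTCF under BPK25 and 551 (13.8%) expected. Under IAA the same class had 112 (2.81%) listed and 2376 (59.6%) expected. The numbers listed were below these expected numbers in both classes. The expected numbers are too high to the extent that DMSO regions were listed for their high counts, and they take the enrichment over background as unchanged. They also rest on the pileup at the summit and do not ask for a stretch as long as a listed region. For CTCF under BPK25 the scaled DMSO pileup had a median of 2.3 fragments where 6 were needed, and 5.59% of the regions were expected. What depth contributed to the regions not listed was not tested in any of the 4 lists.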

How the data were processed

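ChIP-seq was made from 45 libraries in 15 groups, 36 immunoprecipitated and 9 input, grouped by the treatment and antibody in the labels. The 12 peak lists used pool replicates 1 to 3, per the peak names. The build was hg19, and MACS2 2.1.2, Bowtie2 2.3.4 and SAMtools 1.9 are among the tools named, per the submitters' processing notes. Caller settings were not given in the sources consulted. The deposited lists hold, per peak, a fold (a ratio to local background), −log10 p, −log10 q and a score derived from the q-value, all the authors' own values, used only to describe or rank peaks within a list.

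Sub-peaks of 1 region were merged, keeping the one of largest −log10 p. Pileup and local background were solved as whole-number pileups from fold, read as pileup plus 1 over background plus 1, and a Poisson −log10 p, within 0.02%; all regions with −log10 p up to 150 were solved. The smallest background of a list was taken as that of the genome. The depth of single libraries is unknown. Shares have Wilson and differences Newcombe 95% intervals; a share of 0 also has the limit of 3 counts over the total. Scripts were tested on simulated data with known overlaps and pileups.

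Members, classes and tests were chosen with earlier results of these data known. Named regions have a CTCF −log10 q of 5 or more on chromosomes 1 to 22 and X: the 3 of highest DMSO fold per protein and the 3 of highest fold per treated list; where a kind repeated a region or had fewer, fewer are named. Regions at the edge of the definition were taken by smallest overlap or gap, 2 per kind, without the q limit. Sequence and gene position were not analysed here. Python 3.11.15, numpy 2.4.6, pandas 2.3.3, SciPy 1.17.1 and matplotlib 3.10.9 were used.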

Additional observations from a re-analysis of the deposited data

How the results depend on the processing

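Values were recomputed with every list limited to −log10 q 5 and above, with chromosomes 1 to 22 and X alone, a local CTCF background of at most 3 times that of the genome, an overlap of 50% of the shorter region, or summits within 150 bp, and, for the number of regions, no MBD3 region within 500 bp; the class differences under them were added after seeing the data. Of 66 values, 55 stayed within the interval of the reported value, within 1.5 times the reported count or on the same side of the threshold, and no difference changed sign. The number of regions was between 911 and 1215. A −log10 q of 5 or more gave 0% with a BPK25 CTCF or BPK25 MBD3 region, median folds of 4.82 for CTCF, 5 for MBD2 and 3.63 for TET1, and a summit distance of 12 bp; this filter removes weak regions by construction. The background filter gave a median TET1 fold of 3.36. The difference in BPK25 TET1 share from regions with MBD2 and MBD3 but no TET1 was −0.368 points with the q filter and −1.05 points with the summit criterion, with intervals that included 0. The difference from regions with MBD2 only was 0.895 and 0.915 points under the same 2 choices, with intervals above 0; the cause was not tested. Alternatives on sequence windows and distances to gene starts were not run, since no hg19 genome was used here. Leaving out a replicate was not possible with pooled lists. No paired analysis was possible because each list pools replicates 1 to 3.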
